A study of Mus musculus with 2 samples.

Results

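Genes of antigen presentation and of the interferon response were examined in mouse lung fibroblasts taken 14 days after bleomycin or saline was given into the trachea. The set is a list of 48 genes taken by name, for the heavy and light chains of major histocompatibility complex (MHC) molecules, peptide loading, interferon receptors, interferon signalling and interferon-induced products. Of these, 46 were matched by symbol in the deposited table of 16040 genes, and Ifi27 was matched by its transcript record under the older symbol Ifi27l1. No row was matched to Ifitm2, so 47 genes have values. Both groups carried the Col1a2-EGFP reporter, in which a type I collagen promoter drives a green fluorescent protein. Lineage-negative cells with the reporter were sorted from protease-digested lung, so a cell entered a library by its reporter and not by a tested fibroblast identity. The bleomycin library and the saline library each held RNA of 3 mice, with 1 library per group. The dose, the age and sex of the mice, and the lineage markers are not given in the sources used here. Bleomycin is a DNA-damaging drug that produces lung fibrosis in rodents. With no replicate of either group, every test below sets the reads of a pair of libraries against each other and does not test the conditions.

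Class I molecules display peptides from inside the cell to cytotoxic T cells, and class II molecules, loaded with the help of the invariant chain Cd74, display peptides taken up from outside to helper T cells. Interferons bind paired receptors and act through Stat and Irf factors, which switch on antiviral genes and many genes of the class I pathway. Interferon gamma can also induce class II genes in cells that are not professional antigen-presenting cells, through the coactivator Ciita.

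The assay was SAGE, serial analysis of gene expression. It reads 1 short tag near the 3′ end of each transcript, so that a count does not scale with transcript length. The anchoring enzyme of the kit and the matching of tags to genes are not described in the labels. Tags of 27 bases were therefore predicted, on the assumption of the CATG site nearest the 3′ end as anchor, from GENCODE transcripts (GRCm38) of the deposited accessions, to show which members a tag can tell apart. They are shown for both main class I heavy chains, for the class II chains, and for those called members and Ifitm genes that could be shown, with the assumed anchoring site in capitals.
H2-K1: CATGgattgagaatgcttagaggtttt
H2-D1: CATGgattgagaatgcttagaggtttt
H2-T23: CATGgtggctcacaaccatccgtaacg
B2m: CATGttttcaaaaaattggaaatatcc
H2-Aa: CATGgtgttctttctcttcttcaagtg
H2-Ab1: CATGgtactattgtatccaccacctca
H2-Eb1: CATGggagttattgtataagaaataaa
Igtp: CATGtttaaataaaactcttttccctc
Isg15: CATGgaggacaaggagctgctggggga
Ifi35: CATGgctcgctcgtgcacgcgcgcgct
Ifitm1: CATGgtggactcaataaagtgcacgtg
Ifitm3: CATGaacttctgctgcctgggcttcat
Ifnar1: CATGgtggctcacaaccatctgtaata
H2-K1 and H2-D1 had the same predicted tag, so their separate counts are uncertain and their sum is also given. The predicted tag of H2-T23 was that of 18 other genes and that of Ifnar1 was that of 2 others, and both begin with the same 20 bases. For 40 of the 47 members the predicted tag belonged to that gene alone among GENCODE genes, and for H2-M3, Gbp3 and Ddx58 the transcript ended before the tag was complete.

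The bleomycin library held 1099840 counts and the saline library 1080798. Library sizes were scaled by the trimmed mean of M values (TMM), and levels in CPM, counts per 1000000 of the scaled library, use these sizes. A single count was worth 0.922 CPM in the bleomycin library and 0.912 CPM in the saline library. For a gene at 0, the limit that 3 counts set is 2.77 CPM in the bleomycin library and 2.74 CPM in the saline library. The test was a two-sided exact binomial test on the counts of each of the 9369 genes whose counts added up to 10 or more, with Benjamini-Hochberg adjustment over them. A gene was called when its adjusted p was under 0.05 and its ratio at least 2. The bracketed range after a ratio or fold is its exact 95% interval, which covers counting error only. The reporter's own gene Col1a2 had 5613 counts in the bleomycin library and 1636 in the saline library. Of 7 listed fibroblast genes tested, 2 were called higher, Col1a2 among them, and 1 was called lower. Ratios were below 1 for 4 of these genes and above 1 for 3. The gene called lower, Dcn, had 1606 and 4861 counts, and Pdgfra had 323 and 509. Ptprc, the leukocyte surface protein CD45, had 1 and 0.

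The listed antigen presentation and interferon genes were mostly lower in the bleomycin library, with 10 of the 17 that passed the test under 2-fold. The list was chosen with earlier results of these data known, so the shares below describe these members and not their pathways at large. Of 39 members tested, 7 were called lower, which is 17.9% of them against 8.52% of all genes tested. The 7 were the class I heavy chains H2-K1 and H2-T23, the class II chain H2-Eb1, the invariant chain Cd74, the GTPase Igtp, the ubiquitin-like protein Isg15 and Ifi35. Among these, H2-K1 and H2-T23 had predicted tags shared with other genes. No member was called higher, against 8.08% of all genes tested. At any ratio, 17 members had an adjusted p under 0.05 and a lower level in the bleomycin library, or 43.6% of them against 14.1% of all genes tested, and 0 had a higher level, against 13.8%. A ratio below 1 was found for 33 of the 39 members, against 49.6% of all genes tested. The median log2 ratio, with 0.5 added to each count, was −0.66 for the members and 0.02 for all genes tested. The members passed the minimum with a median of 55 counts over both libraries and all tested genes with 52. Among genes with at least 50 counts, 14 of 21 members had an adjusted p under 0.05 and a lower level, against 1060 of 4823 such genes (22%). Under that minimum Iigp1 passed with a higher level, and the other 6 members did not pass. With the minimum of 10 counts Iigp1 missed the threshold.

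**Figure D1:**
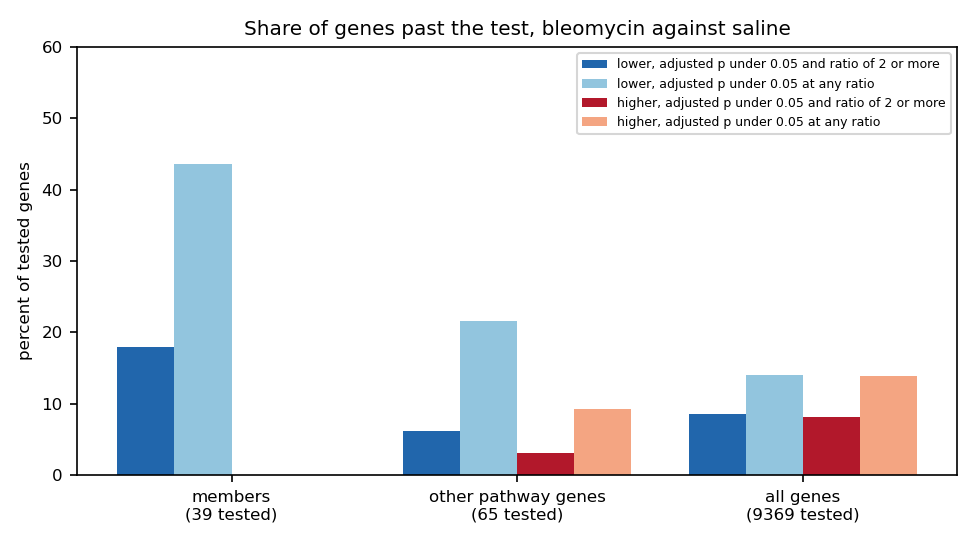
Percent of tested genes past the exact binomial test in each direction, for the members (39 tested), other genes of the same pathways (65 tested) and all genes of the table (9369 tested). Dark bars also require a ratio of at least 2, and light bars do not. The members' bars stand at 17.9% and 43.6% on the lower side and at 0 on the higher side.

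The members together took 7316 counts, or 0.665% of the bleomycin library, against 11215 counts, or 1.04% of the saline library. Ifitm1 alone gave 38.2% of the members' counts in the bleomycin library and 33.9% in the saline library. Without Ifitm1 the summed level of the other members was 1.62-fold lower. The next most abundant members were B2m and H2-D1, and in both libraries Irf1 followed them.

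**Figure D2:**
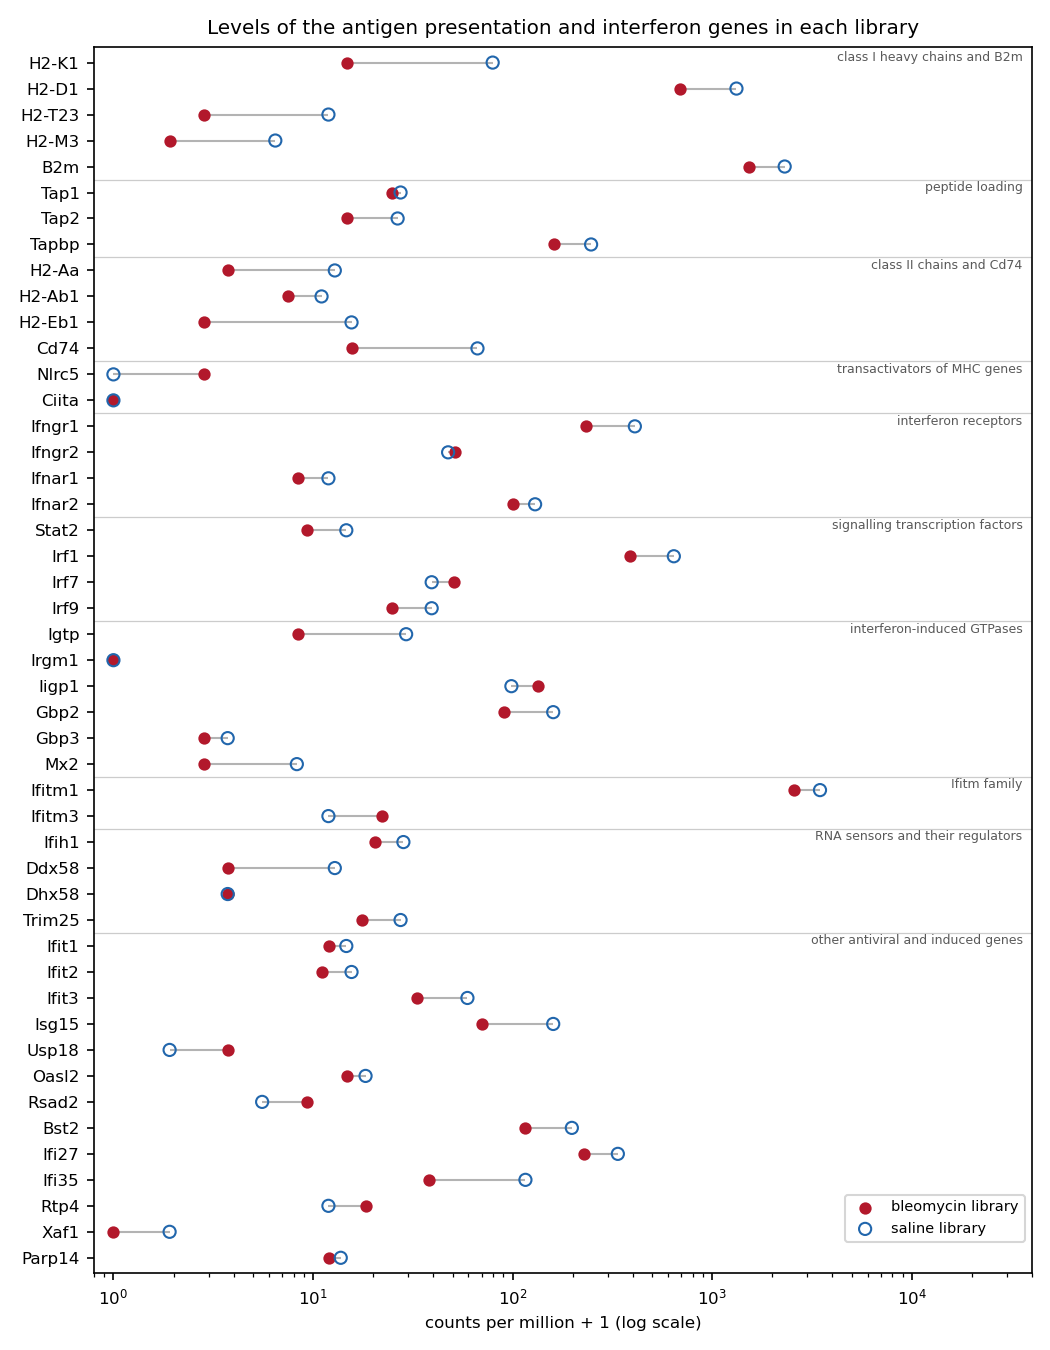
Level of each of the 47 members in the bleomycin library (filled red) and the saline library (open blue), in CPM plus 1 on a log scale, grouped by role. Most red points lie left of their blue partner. Ciita and Irgm1 had 0 counts in both libraries.

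All 4 tested class I genes, the shared light chain included, were lower in the bleomycin library. H2-K1, a classical heavy chain, had 15 counts in the bleomycin library and 86 in the saline library. It was 5.67-fold lower (3.25 to 10.6), with an exact binomial adjusted p of 6.89e-12. H2-D1, the other classical heavy chain, had 745 and 1449 counts, a 1.92-fold lower level (1.76 to 2.10), just under the 2-fold needed for a call, with an exact binomial adjusted p of 3.12e-48. Summed over both genes, which share the predicted tag shown above, the counts were 760 in the bleomycin library and 1535 in the saline library, a 2.0-fold lower level (1.83 to 2.18). The fold given for H2-K1 alone therefore rests on how shared tags were assigned, which was not tested. Over all 20 class I heavy chain rows of the table, members or not, the counts were 889 and 1821 and the level was 2.03-fold lower (1.87 to 2.20), with most of these counts from H2-D1. Of 9 of these rows tested, 4 were called lower and 1 higher. The row called higher was H2-T3, a nonclassical heavy chain that was singled out after its values were seen, with 11 counts in the bleomycin library and 2 in the saline library. Its ratio was 5.56 (1.21 to 51.6), with an exact binomial adjusted p of 0.0458.

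B2m, the light chain that every classical class I molecule needs, had 1663 counts in the bleomycin library and 2528 in the saline library. It was 1.5-fold lower (1.41 to 1.60), with an exact binomial adjusted p of 4.97e-37. H2-T23, a heavy chain that presents leader peptides to natural killer cell receptors, had 2 and 12 counts, a 5.93-fold lower level (1.32 to 54.6), with an exact binomial adjusted p of 0.0469. That call was lost with no minimum count and with Bonferroni adjustment, and the predicted tag of H2-T23 is shared with 18 other genes. It was also lost in an edgeR exact test with an assumed coefficient of variation of 0.2 or 0.4. H2-M3, which presents formylated bacterial peptides, had 1 and 6 counts and was not tested.

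Of 3 peptide loading genes, 1 passed the test. Tapbp, the tapasin bridge between class I and the peptide transporter, had 173 counts in the bleomycin library and 270 in the saline library and was 1.54-fold lower (1.27 to 1.88), with an exact binomial adjusted p of 7.09e-05. Tap1, a subunit of that transporter, had 26 and 29 counts, with a ratio of 0.907 (0.513 to 1.59). Its partner Tap2 had 15 and 28 counts, with a ratio of 0.542 (0.269 to 1.05). Neither transporter gene passed the test, and the intervals reach to a nearly 2-fold lower level for Tap1 and beyond it for Tap2.

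The class II chains H2-Aa, H2-Ab1 and H2-Eb1 were detected at a low level, while Cd74 lay above 65.5% of tested genes. Of these 4 genes, all tested, 2 were called lower. Cd74, the invariant chain that fills the groove of class II until loading, had 16 counts in the bleomycin library and 72 in the saline library. It was 4.45-fold lower (2.56 to 8.20), with an exact binomial adjusted p of 1.99e-08. H2-Eb1, a class II beta chain, had 2 and 16 counts, a 7.91-fold lower level (1.86 to 70.9), with an exact binomial adjusted p of 0.00704. Bonferroni adjustment ended this call, as did an edgeR exact test with an assumed coefficient of variation of 0.2 or 0.4. H2-Aa, the class II alpha chain, had 3 and 13 counts, for a ratio of 0.233 (0.0427 to 0.849), and it missed the threshold with an exact binomial adjusted p of 0.0703. H2-Ab1, its beta chain partner, had 7 and 11 counts, for a ratio of 0.644 (0.212 to 1.82). All 4 genes together gave 28 counts in the bleomycin library and 112 in the saline library, or 25.8 and 102 CPM.

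The coactivators of MHC genes were at the limit of detection. Ciita, which drives class II transcription, had 0 counts in both libraries. Nlrc5, its class I counterpart, had 2 counts in the bleomycin library and 0 in the saline library. A change in either was not detectable at this depth.

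Markers of other cell types moved in the same comparison. Of 15 endothelial markers, 12 were tested and all 12 were called lower, with summed levels of 40.6 CPM in the bleomycin library and 607 CPM in the saline library. Among them Pecam1 had 3 and 53 counts and Cdh5, the endothelial cadherin, had 1 and 11. The alveolar type 2 list had 9.22 and 150.5 CPM, nearly all of it Sftpc, the surfactant protein gene, with 7 and 154 counts. Sftpc was 1 of 2 tested markers of that list and was called lower. Lamp3 and Sftpd, other markers of that cell type, were at 0 in both libraries. The airway list had 158 and 534 CPM, most of it Tppp3, with 153 and 535 counts, and both of its tested markers were called lower. Other airway markers had too few counts to be tested. Foxj1 had 3 counts in the bleomycin library and 0 in the saline library, Krt5 had 1 and 0, and Cyp2f2 had 2 and 5. Of smooth muscle and pericyte markers, 4 of 8 tested were called lower and 1 higher. The marker called higher was Des, the most abundant of that list, with 571 and 169 counts. The 4 called lower were Myh11 with 106 and 237 counts, Cnn1 with 4 and 17, Higd1b with 6 and 44, and Cox4i2 with 4 and 43. Summed levels of that list were 936 CPM in the bleomycin library and 762 CPM in the saline library. Mesothelial markers held 9 and 5 counts in all, with Msln at 2 and 3.

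Leukocyte markers had few counts in both libraries. Of 10 macrophage and monocyte genes, 7 were matched to a row, Cd68 not among them, and these summed to 8 counts in each library. Of 6 dendritic cell genes, 4 were matched, with 6 counts in the bleomycin library and 3 in the saline library. Itgax was at 0 in both. The B cell list had 1 and 4 counts, Cd79a having 0 and 2. Of 6 pan-leukocyte markers, 4 were matched. Coro1a had 0 and 8 counts and the others at most 1. Of 6 T and natural killer cell genes, 4 were matched, Cd3e included, and all were at 0 in both libraries. No row was matched to Nkg7, so that list held T cell genes only. The neutrophil list, with 3 of 4 genes matched, had 4 and 0. The lower endothelial and epithelial markers stand beside the lower MHC and interferon genes, and their part in that result, as that of leukocytes in the class II genes, was not tested. Fewer cells of a type and less RNA per cell cannot be told apart in these libraries.

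**Figure D3:**
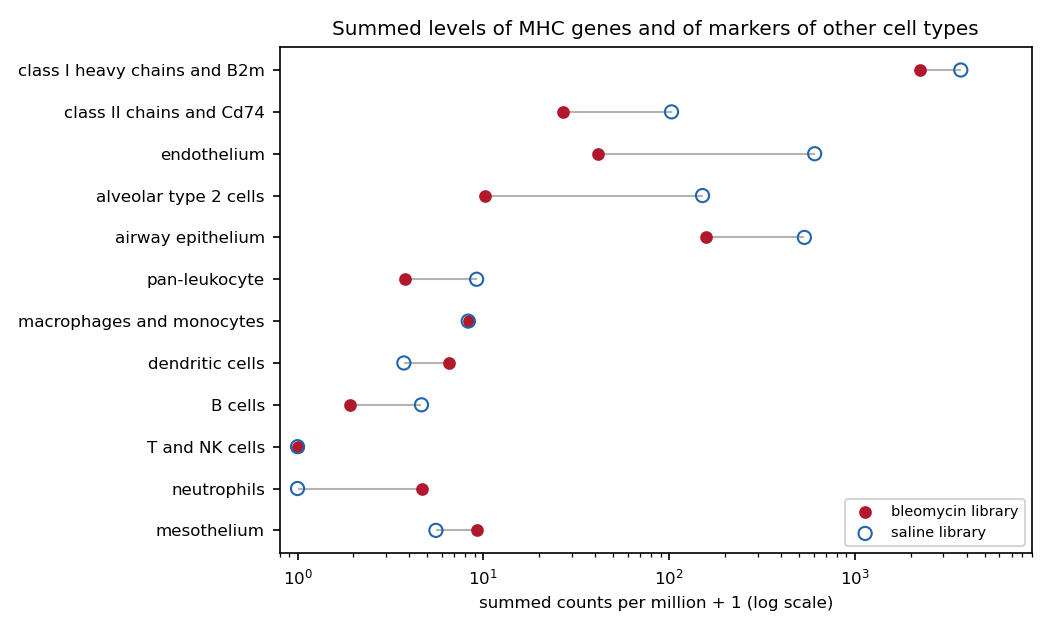
Summed level of class I and class II members and of 10 marker lists of other cell types in the bleomycin library (filled red) and the saline library (open blue), in CPM plus 1 on a log scale. Class II members and endothelial, alveolar type 2 and airway markers lie well to the left in the bleomycin library, and leukocyte lists lie below 10 CPM in both. Smooth muscle and pericyte markers are not shown.

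Of the interferon receptors, a single chain passed the test. Ifngr1, the ligand-binding chain for interferon gamma, had 253 counts in the bleomycin library and 448 in the saline library and was 1.75-fold lower (1.5 to 2.05), with an exact binomial adjusted p of 8.96e-12. Its signalling partner Ifngr2 had 55 and 51 counts, for a ratio of 1.09 (0.731 to 1.63). The intervals of both chains of this receptor do not overlap, and the difference itself was not tested. For type I interferon, Ifnar2 had 108 and 141 counts with a ratio of 0.775 (0.597 to 1.00), and Ifnar1 had 8 and 12 counts with a ratio of 0.674 (0.239 to 1.79).

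Among the transcription factors, Irf1, which relays interferon gamma to class I genes, was the most abundant, with 418 counts in the bleomycin library and 703 in the saline library. It was 1.66-fold lower (1.47 to 1.88), with an exact binomial adjusted p of 1.96e-15. Stat2 and Irf9, parts of the complex that carries the type I signal, had 9 and 15 counts and 26 and 42 counts, and neither passed the test. Irf7, an inducible amplifier of type I interferon, had 54 and 42 counts with a ratio of 1.30 (0.853 to 1.99), on the other side of 1 from the rest. Thus Irf7 and Irf1 lay in opposite directions, and Irf7 did not pass the test.

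The interferon-induced GTPases, most of which act on vacuoles of intracellular pathogens, were divided. Igtp had 8 counts in the bleomycin library and 31 in the saline library and was 3.83-fold lower (1.72 to 9.65), with an exact binomial adjusted p of 0.00195. That call was lost with Bonferroni adjustment and in an edgeR exact test with an assumed coefficient of variation of 0.2 or 0.4. Gbp2, a guanylate-binding protein, had 97 and 174 counts, a 1.77-fold lower level (1.38 to 2.30), with an exact binomial adjusted p of 4.59e-05. Iigp1, a GTPase of the same family as Igtp, had 144 and 107 counts, for a ratio of 1.36 (1.05 to 1.76), and it missed the threshold with an exact binomial adjusted p of 0.0568. Iigp1 and Igtp thus had intervals on opposite sides of 1. Mx2, an antiviral dynamin-like GTPase, had 2 and 8 counts, for a ratio of 0.253 (0.0262 to 1.27). Gbp3 had 2 and 3 counts and was not tested, and Irgm1 was at 0 in both libraries.

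The Ifitm proteins restrict virus entry at membranes. Ifitm1 was the most abundant member, with 2793 counts in the bleomycin library and 3800 in the saline library, above 99.6% of tested genes. It was 1.35-fold lower (1.28 to 1.41), with an exact binomial adjusted p of 2.77e-31. Ifitm3 had 23 and 12 counts, for a ratio of 1.94 (0.926 to 4.27) that did not pass the test.

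Of 11 other antiviral and induced genes tested, 5 passed the test and 2 of these, Isg15 and Ifi35, were called. Isg15, a ubiquitin-like protein that is attached to other proteins, had 75 counts in the bleomycin library and 174 in the saline library. It was 2.29-fold lower (1.74 to 3.05), with an exact binomial adjusted p of 8.04e-09. Ifi35, a leucine zipper protein induced by interferon, had 40 and 126 counts, a 3.11-fold lower level (2.17 to 4.56), with an exact binomial adjusted p of 3.22e-10. Bst2, the tetherin that holds virus particles at the surface, had 124 and 216 counts, a 1.72-fold lower level (1.37 to 2.17), with an exact binomial adjusted p of 1.05e-05. Ifit3, of a family that binds viral RNA, had 35 and 64 counts, a 1.81-fold lower level (1.18 to 2.81), with an exact binomial adjusted p of 0.0204. Ifi27, a small hydrophobic protein, had 246 and 368 counts, a 1.48-fold lower level (1.26 to 1.75), with an exact binomial adjusted p of 1.91e-05.

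The remaining effectors and the RNA sensors did not pass the test, with counts of 30 or fewer per library. Ifit1 had 12 and 15 counts in the bleomycin and saline libraries, Ifit2 had 11 and 16, Oasl2, related to the oligoadenylate synthetases, had 15 and 19, and Parp14, an ADP-ribosyltransferase, had 12 and 14. All these ratios were below 1 with intervals that held 1. Rsad2, the antiviral enzyme viperin, had 9 and 5 counts, and Rtp4, a transport chaperone, had 19 and 12, both with ratios above 1. Of the sensors of viral RNA, Ifih1 (MDA5) had 21 and 30 counts. Ddx58 (RIG-I) had 3 and 13 counts, a ratio of 0.233 (0.0427 to 0.849) and an exact binomial adjusted p of 0.0703. Trim25, a ubiquitin ligase that acts on RIG-I, had 18 and 29 counts. Dhx58 (LGP2) with 3 and 3 counts, Usp18, which removes Isg15 from proteins, with 3 and 1, and Xaf1 with 0 and 1 were not tested.

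**Figure D4:**
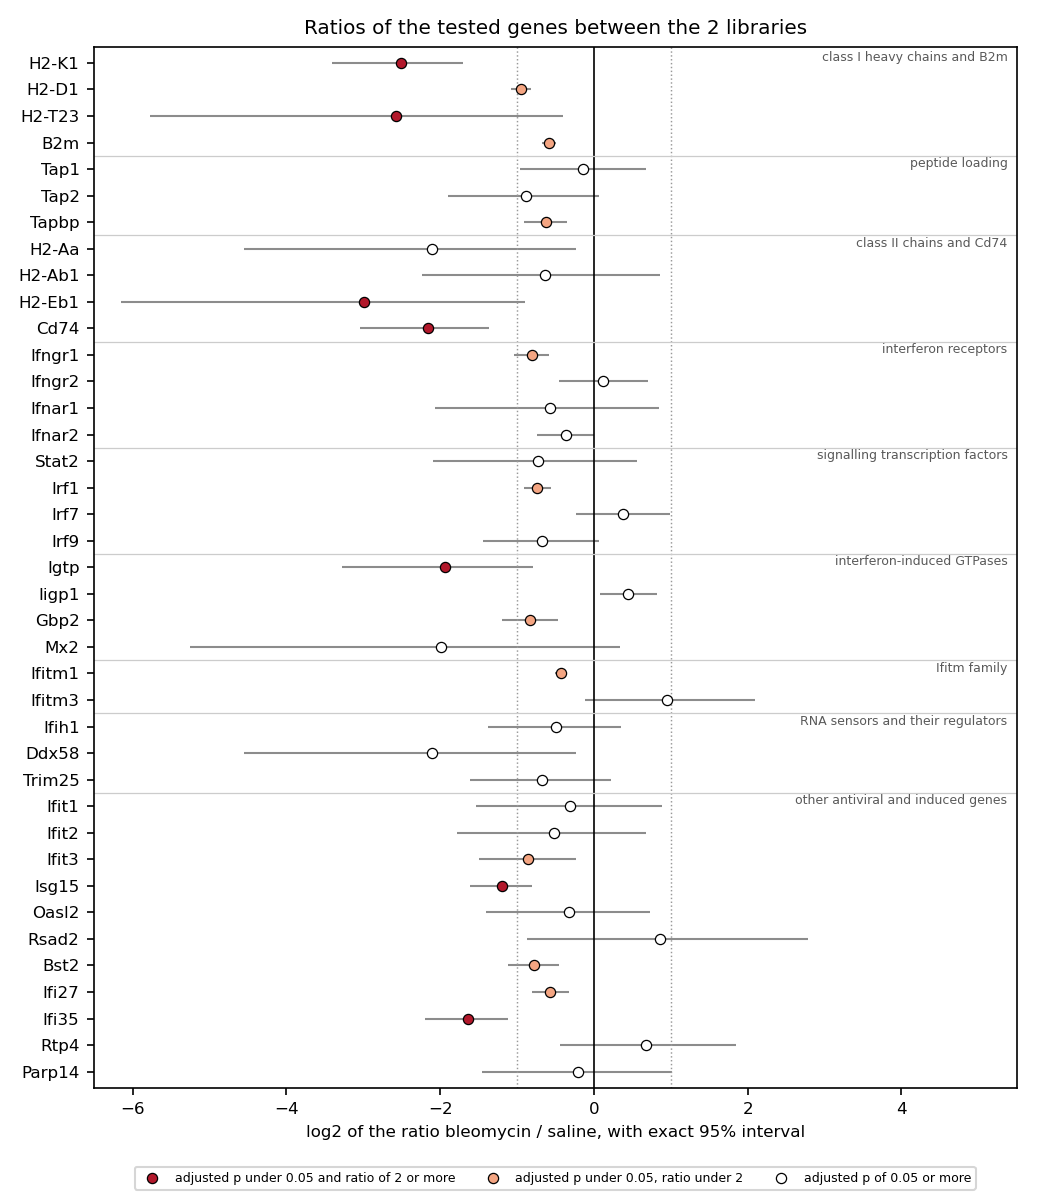
Log2 of the ratio of the bleomycin to the saline library for the 39 tested members, with exact 95% intervals, grouped by role. Dark red points were called, light red points had an adjusted p under 0.05 with a ratio under 2, and white points did not pass. No point right of 0 passed the test.

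Other genes of these pathways, from lists that do not hold the members, were also examined. Of 65 tested, 4 were called lower (6.15%, against 8.52% of all genes tested) and 2 higher, against 8.08% of all genes tested. At any ratio, 14 had an adjusted p under 0.05 and a lower level (21.5%, against 14.1% of all genes tested). A higher level with such a p was found for 6 of the 65, against 13.8% of all genes tested. Their median log2 ratio was −0.43. Among 17 tested genes of antigen processing, the row H2-Gs10, which RefSeq names H2-Q4, a class I heavy chain gene, was called lower, with 57 counts in the bleomycin library and 158 in the saline library, 2.74-fold lower (2.01 to 3.78). Its count may also depend on how tags shared with other heavy chains were assigned, but no tag was predicted for this row. Among 17 tested signalling genes, Irf8, an interferon regulatory factor best known from myeloid cells, had 37 and 101 counts, a 2.70-fold lower level (1.84 to 4.05) with an exact binomial adjusted p of 6.81e-07. Jak2, a kinase of the interferon gamma receptor and of many other cytokine receptors, was called higher, with 111 and 53 counts and a ratio of 2.12 (1.51 to 3.00).

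Of 31 other interferon-induced genes tested, 1 was called in each direction. Of all genes tested, 8.52% were called lower and 8.08% higher. Ifi27l2a, a relative of Ifi27, had 285 counts in the bleomycin library and 893 in the saline library and was 3.10-fold lower (2.71 to 3.55). Slfn2, a schlafen protein of growth control, had 36 and 2 counts, for a ratio of 18.2 (4.69 to 156). None of 10 interferon ligand genes was matched to a row, so no ligand level can be given.

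Promoters were also searched for motifs of the interferon response. RefSeq promoter windows (GRCm38.p6), which run from 250 bases before to 50 bases after a gene's start, were found for 35 of the 47 members. The interferon-stimulated response element core TTTCNNTTTC, searched on both strands, occurred in 15 of the 35 (42.9%), against 3.99% of all genes with a window. The gamma-activated site TTCNNNGAA occurred in 9 (25.7%), against 9.55%. The members were listed by name as interferon and MHC genes. An excess of these motifs can therefore come from that choice and is no result about these libraries. The windows of the abundant B2m and of 2 called members with the core are shown, each read on the strand of the gene with the cores in capitals.
Isg15, chr4:156200769-156201068, minus strand: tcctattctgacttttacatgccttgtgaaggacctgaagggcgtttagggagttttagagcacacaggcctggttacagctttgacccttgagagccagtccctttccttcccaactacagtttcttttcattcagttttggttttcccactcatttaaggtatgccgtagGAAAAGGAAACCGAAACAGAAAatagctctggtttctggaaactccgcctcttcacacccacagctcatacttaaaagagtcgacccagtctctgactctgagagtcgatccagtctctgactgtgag
Igtp, chr11:58199306-58199605, plus strand: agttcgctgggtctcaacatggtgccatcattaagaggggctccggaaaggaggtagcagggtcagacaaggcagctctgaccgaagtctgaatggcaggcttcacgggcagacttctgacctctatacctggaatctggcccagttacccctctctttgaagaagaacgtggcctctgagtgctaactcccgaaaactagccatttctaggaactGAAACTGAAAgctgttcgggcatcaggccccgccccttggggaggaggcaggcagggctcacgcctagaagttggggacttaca
B2m, chr2:122147437-122147736, plus strand: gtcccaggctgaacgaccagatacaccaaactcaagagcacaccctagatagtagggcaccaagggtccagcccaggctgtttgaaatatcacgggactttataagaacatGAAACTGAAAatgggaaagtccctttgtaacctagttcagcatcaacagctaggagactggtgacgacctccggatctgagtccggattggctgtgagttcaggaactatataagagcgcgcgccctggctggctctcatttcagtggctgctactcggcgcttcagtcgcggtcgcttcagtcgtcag
The Isg15 window held 3 overlapping cores, and those of Igtp and B2m held 1 each. The letters of both motifs can overlap in a sequence, and matches were counted separately. A match is a run of letters and not a shown binding site.

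The ratios of the members were set beside these matches. The 13 tested members with the response element core had a median log2 ratio of −0.78, with 3 called lower (H2-T23, Igtp and Isg15). The 18 tested members with a window that lacked it had a median of −0.64, with 3 called lower (H2-K1, H2-Eb1 and Ifi35). For the gamma-activated site the medians were −0.64 with it, over 8 members, and −0.67 without it, over 23. No difference between these medians was tested.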

How the data were processed

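The data are SOLiD SAGE tag counts per gene from 1 bleomycin and 1 saline library. The deposited table gives whole-number counts, and the sources used here do not give how the authors assigned tags to genes, whether strand was used or whether values were scaled. BWA 0.6.2 and mm9 appear in the submitters' processing notes, without a stated role. One blank row was left out. The members and lists were chosen with earlier results of these data known. Library sizes were scaled by TMM in edgeR 4.0.16 (R 4.3.3), and the exact binomial test ran in scipy 1.17.1 under Python 3.11.15. With 1 library per group, edgeR's quasi-likelihood test could not be fitted. Symbols were matched by RefSeq accession (GRCm38.p6) where the table used an older one. Every member is accounted for. From the other pathway lists, genes are named that were called and reached 10 counts in the higher library (at most the 4 highest and 8 lowest ratios per list), and from the marker lists the most abundant and the defining genes. One called gene of these lists is not reported here. Lamp3, Sftpd, Foxj1, Krt5, Cyp2f2, Dcn, Pdgfra, Myh11, Cnn1, Higd1b and Cox4i2 were named after their values were seen. Simulated counts with known changes and counting error only were used to check the test. That check does not cover the spread between preparations. Alternatives were total counts or DESeq2 1.42.0 size factors, no minimum or 50 counts, a ratio of at least 3, Bonferroni adjustment, a prior count of 5, and an edgeR exact test with an assumed biological coefficient of variation of 0.2 or 0.4. p-values measure the reads of these libraries, since no separate samples of a group exist.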

Additional observations from a re-analysis of the deposited data

How the results depend on the processing

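No paired analysis was possible because each group is 1 library, and for the same reason no library could be left out. The number of members called lower was 7 and became 4 with a minimum of 50 counts, 4 with Bonferroni adjustment, 3 with an edgeR exact test at an assumed coefficient of variation of 0.2 and 0 at 0.4. Total counts gave 9 members called lower (H2-Aa and Ddx58 added), and over all 9369 genes tested they gave 675 higher and 927 lower. The share of all genes called lower thus rose too, from 8.52% to 9.89%. DESeq2 size factors gave 7 members, and 686 higher and 811 lower (8.66%) over all genes. Without a minimum, 6 of 45 tested members were called lower, and 745 genes were higher and 765 lower of 13877. Asking for a 3-fold change also left 6 members, against 4.75% of all genes tested. When 50 counts were required, 21 members were tested. H2-K1, Cd74 and Ifi35 were called under every alternative except the coefficient of 0.4, and Isg15 was also lost at 0.2 and with a ratio of at least 3. No member was called higher under any alternative. Other pathway genes called higher, 2 at first, numbered 1 under each of 3 settings (50 counts as the minimum, 3 as the smallest ratio, a coefficient of 0.2) and 0 at 0.4. Those called lower, 4 at first, numbered 1 with a ratio of at least 3, 2 at a coefficient of 0.2 and 0 at 0.4. The median log2 ratio of the members lay between −0.70 and −0.58 under the scalings, minimums and prior counts tried. Over all genes, 757 were called higher and 798 lower, against 396 and 484 with a minimum of 50 counts, 443 and 445 when the ratio had to reach 3, 288 and 333 with Bonferroni adjustment, 274 and 333 at a coefficient of 0.2, and 21 and 8 at 0.4. For the 8 members under 10 counts, depth sets the limit. The spread between preparations is unknown here, and it decides how many calls hold.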
